A study of Mus musculus with 7 samples.

Results

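Macrophages and dendritic cells are the tissue's resident phagocytes and antigen-presenting cells, and 33 genes that mark them or act in them were read in the uterus of the cycling mouse. The genes were taken by symbol from a fixed list, and all 33 were present among the 31274 rows of the expression table. RNA sequencing had been done on whole uteri of intact, untreated CD-1 mice, an outbred stock, aged 2 months, with 3 libraries at estrus and 4 at diestrus. The uterus has been exposed to high estradiol by estrus and to luteal progesterone by diestrus. Whether a library stands for 1 mouse or for pooled tissue is not stated in the labels, so p-values here reflect variation among these 7 libraries, part of which may be technical. Values are FPKM, that is, sequenced fragments scaled to transcript length and to the mapped total, which allow levels of different genes to be compared per length.

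Uterine macrophages live mainly in the stroma and the muscle layer, where they clear dying cells and remodel matrix through the cycle. Their survival depends on the growth factor Csf1, made by the uterine epithelium and other cells under ovarian hormones, which acts on the receptor Csf1r. Dendritic cells depend instead on the receptor Flt3 and take antigen to lymph nodes. Among the members, the Fc receptors Fcgr1 and Fcgr3 signal through the adaptor Fcer1g, and Tyrobp is the adaptor of other myeloid surface receptors. Both adaptors carry the immunoreceptor tyrosine-based activation motif, or ITAM.

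Macrophage genes gave values in every library, at unlike levels. C1qa, Csf1r, Lyz2 and Cd68 were above 9 FPKM in each of the 7. Others were lower: Cx3cr1, Aif1 and Ms4a7 went down to 4.04, 4.43 and 2.50 FPKM, and Cd163 ran from 0.29 to 1.83. The dendritic cell genes Clec9a, Flt3, Batf3 and Xcr1 were near the lower limit of the table. Their highest values in any library were 2.04 FPKM for Clec9a, 1.54 for Flt3, 1.43 for Batf3 and 0.95 for Xcr1. Irf8, which also acts in dendritic cells, was higher, at 7.33 to 12.7 FPKM. The deposited values give no read counts. The spacing of the lowest values put the relative depth of the libraries at 0.92 to 1.36 times that of estrus replicate 1. Diestrus replicate 1 stood apart from the other diestrus libraries. It held the lowest diestrus value for 29 of the 33 members and, of the 26 tested members with a negative log2 fold change, it lay at or under the highest estrus library for 14. The same count was 3, 4 and 1 in diestrus replicates 2, 3 and 4. The 10 most abundant rows took 33.7% to 38.2% of the FPKM sum in the estrus libraries, against 34.2% in diestrus replicate 1 and 12.1% to 18.7% in diestrus replicates 2 to 4. Diestrus replicate 1 thus stood with the estrus libraries in this measure too, and its part in the lower member values there was not tested. In estrus, replicate 2 held the lowest value for 22 members and replicate 3 the highest for 20.

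**Figure D1:**
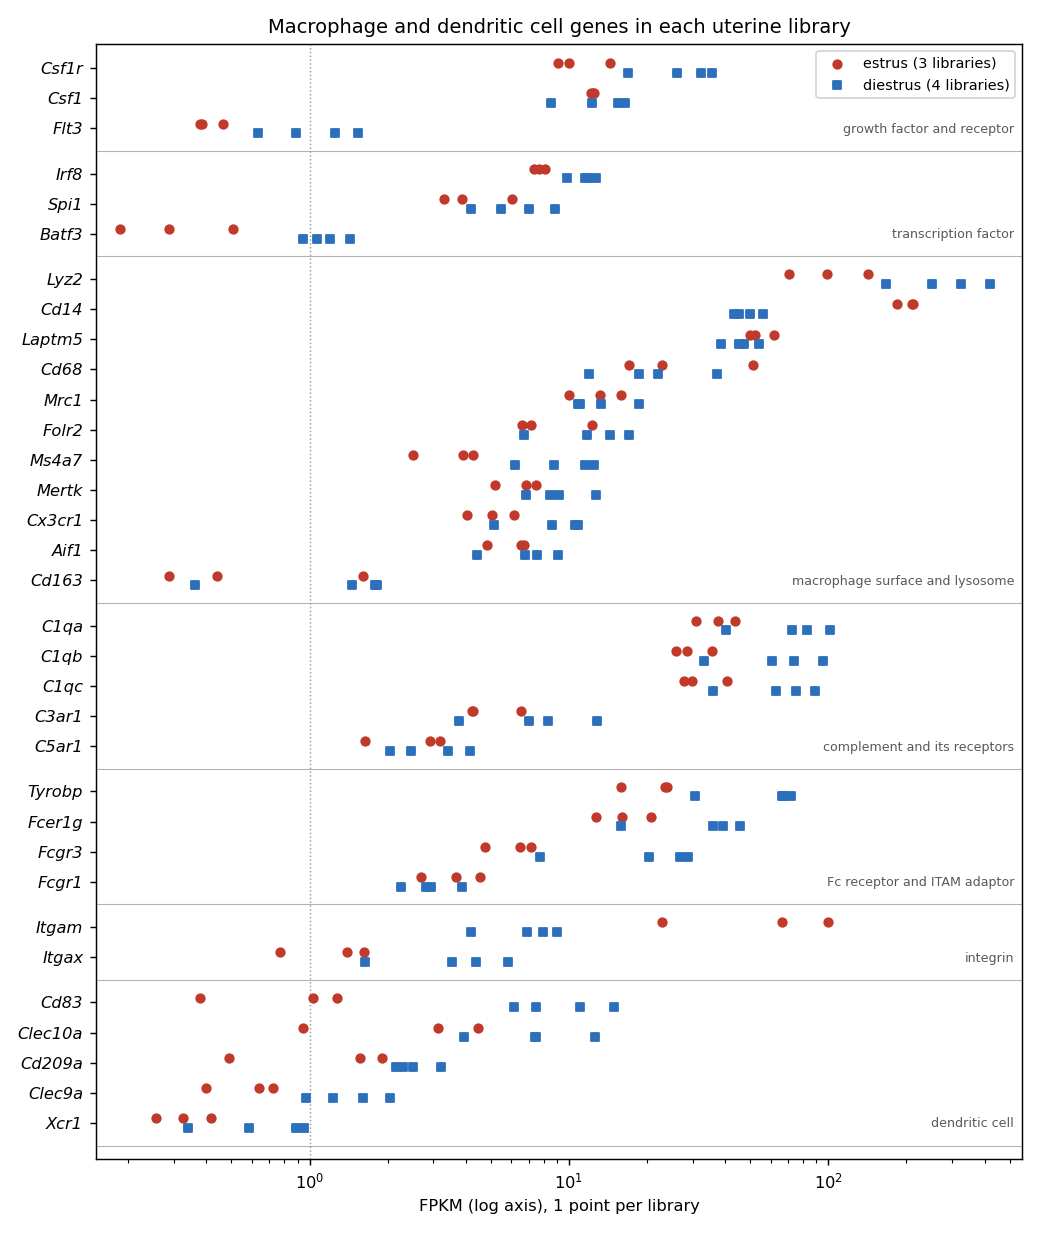
FPKM of the 33 macrophage and dendritic cell genes on a log axis, grouped by role, with 1 red circle per estrus library and 1 blue square per diestrus library. The dotted line marks 1 FPKM. Most members lie further left at estrus, while Cd14 and Itgam lie further right, and diestrus replicate 1 is the lowest diestrus point for 29 members.

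Of 31 tested macrophage and dendritic cell genes, 26 had a negative log2 fold change at estrus, though fewer passed the test. Cd14 and Itgam rose at estrus. Itgam (2.80) changed by more than every other tested member, and Cd14 (2.04) by more than all but Itgam and Cd83 (-2.48). Genes that reached 1 FPKM in 3 or more libraries were tested with limma on log2(FPKM + 1), with Benjamini-Hochberg adjustment over all 13920 genes that passed this filter and a threshold of 0.05. All log2 fold changes, also called log2 changes, are estrus minus diestrus on that scale, where low genes appear to change less than they do. Of the 31 tested members 11 fell (35.5%) and 2 rose (6.45%). Of all tested genes 14.0% fell and 17.2% rose, which together make 31.1%. The members were chosen with earlier results of these data known, so their shares only describe them. Batf3 and Clec9a passed the filter through their diestrus values alone, so a difference was built into their being tested. Without them 9 of 29 members fell. The median log2 fold change was -0.62 over the 31 members, -0.52 without Batf3 and Clec9a, and 0.05 over all tested genes. The number that fell was 1 without estrus replicate 2, namely Cd83, and 15 without diestrus replicate 1. It was 6, 6 and 5 without diestrus replicates 2, 3 and 4, and 5 and 6 without estrus replicates 1 and 3. The members tested were 30 without diestrus replicate 1, and 29, 29 and 30 without diestrus replicates 2, 3 and 4. Batf3, Clec9a or both missed the filter there. Cd14 and Itgam rose whichever library was left out. In whole tissue, fewer cells of a type and less RNA per cell cannot be told apart.

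**Figure D2:**
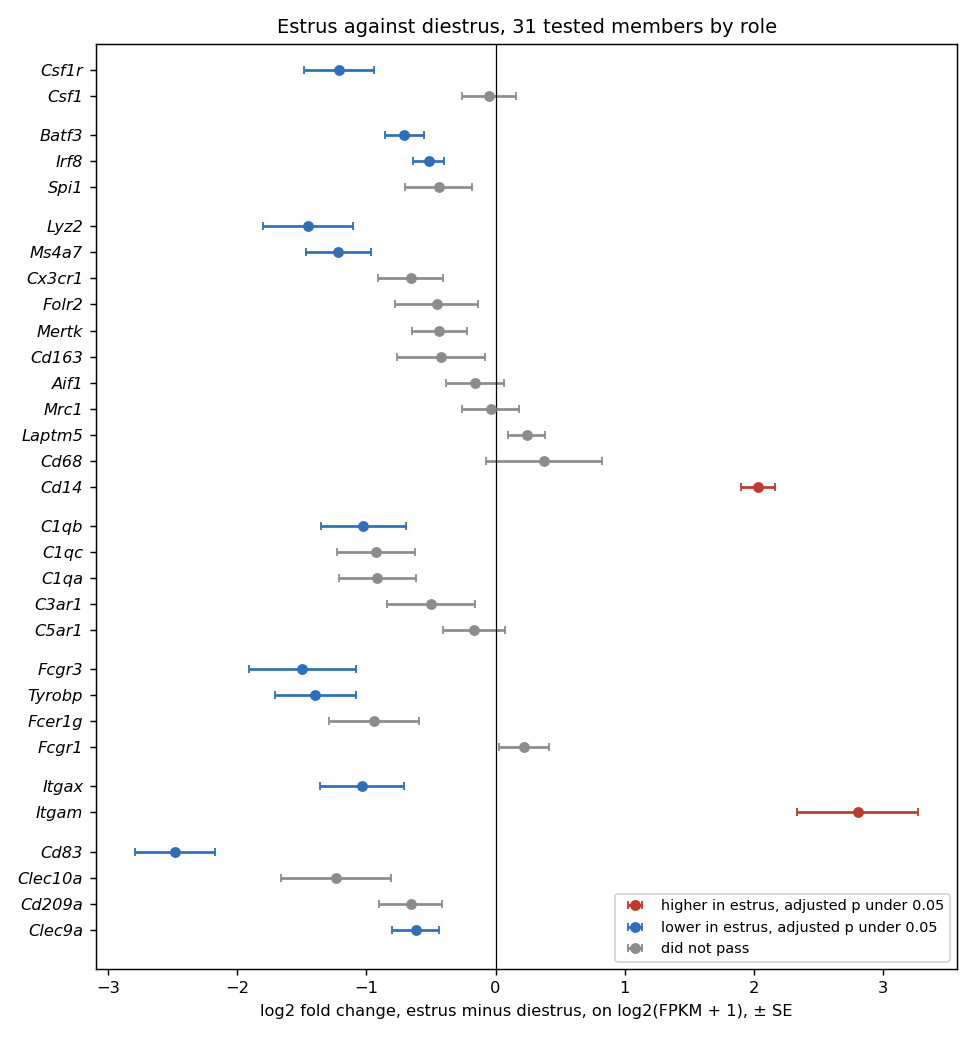
Log2 fold change of the 31 tested members, estrus minus diestrus on log2(FPKM + 1), with standard errors, by role. Cd14 (2.04) and Itgam (2.80) are the red points to the right, the 11 members that fell are blue, and 18 that did not pass are grey.

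The growth factor Csf1 and its receptor Csf1r differed in pattern. Csf1r, the receptor tyrosine kinase on which macrophages depend (chromosome 18), stood at 10.05, 9.08 and 14.5 FPKM in estrus replicates 1 to 3, against 17.0, 32.3, 26.2 and 35.6 in diestrus replicates 1 to 4. The groups did not overlap, and the nearest pair of values was estrus replicate 3 and diestrus replicate 1. Csf1r fell, with a log2 change of -1.21 (SE 0.27, limma adjusted p = 0.0149). Its adjusted p was 0.0507 without estrus replicate 1 and 0.0718 without estrus replicate 2. An exon of Csf1r shares 873 bases with the opposite-strand gene Hmgxb3, and strand use in counting is not given in the sources used here. Hmgxb3 stood at 12.2 ± 1.03 FPKM at estrus (SD, n = 3) and 9.92 ± 0.26 at diestrus (SD, n = 4). Csf1 (GRCm38 chromosome 3, 107741048 to 107760469) stood at 12.5, 12.3 and 12.2 FPKM at estrus, against 8.55, 12.2, 15.4 and 16.5 at diestrus. Its estrus values all lay inside the diestrus range, and the log2 fold change was -0.05 (SE 0.21, adjusted p = 0.871). Il34, the other ligand of the same receptor, was lower than Csf1 in every library, with 1.40 to 1.54 FPKM at estrus and 0.88 to 2.96 at diestrus. Flt3, the dendritic cell growth factor receptor, did not pass the filter. It stood at 0.46, 0.39 and 0.38 FPKM at estrus, against 0.63, 0.88, 1.26 and 1.54 at diestrus, without overlap.

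Among the transcription factors, Irf8 and Batf3 fell and Spi1 did not pass. Batf3 entered the test through its diestrus values alone, so a difference was built in. Irf8, required for the dendritic cell and monocyte lineages (chromosome 8, 120736358 to 120756694), stood at 7.64, 7.33 and 8.06 FPKM at estrus, against 9.81, 11.8, 11.6 and 12.7 at diestrus. The groups were tight and did not overlap, and the log2 fold change was small at -0.52 (SE 0.12, limma adjusted p = 0.0189). Irf8 lost its call when diestrus replicate 4 (adjusted p = 0.0555), estrus replicate 1 (0.0521) or estrus replicate 2 (0.0920) was left out. Batf3, which acts with Irf8 in cross-presenting dendritic cells (chromosome 1, 191097847 to 191108945), stood at 0.51, 0.29 and 0.19 FPKM at estrus, against 1.199, 1.43, 1.07 and 0.94 at diestrus. Its log2 fold change was -0.71 (SE 0.15, adjusted p = 0.0135), with an adjusted p of 0.0710 without estrus replicate 2. Without diestrus replicate 1, 2 or 3 Batf3 missed the filter and was not tested. Spi1, which encodes the myeloid master factor PU.1 (chromosome 2, 91082390 to 91115756), stood at 3.88, 3.30 and 6.03 FPKM at estrus, against 4.21, 8.82, 5.46 and 7.02 at diestrus. The groups overlapped in estrus replicate 3, with a log2 change of -0.44 (SE 0.26, adjusted p = 0.221).

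The ITAM adaptor Tyrobp and the low-affinity Fc receptor Fcgr3 fell. Tyrobp (chromosome 7, 30413760 to 30417585), also called DAP12, carries signals of Trem2 and other surface receptors. It stood at 23.8, 15.8 and 23.4 FPKM at estrus, against 30.5, 71.5, 67.5 and 66.5 at diestrus. Diestrus replicates 2 to 4 lay close together, and diestrus replicate 1 lay nearer to the estrus libraries than to them. The log2 fold change was -1.40 (SE 0.31, limma adjusted p = 0.0155), and the adjusted p was 0.0732 without estrus replicate 2. Fcgr3 (chromosome 1, 171051174 to 171064935) stood at 6.46, 4.74 and 7.11 FPKM at estrus, against 7.75, 26.9, 20.4 and 28.7 at diestrus. The groups did not overlap, though diestrus replicate 1 was close to estrus. Fcgr3 had a log2 change of -1.50 (SE 0.41, adjusted p = 0.0305). Its adjusted p was 0.0564 to 0.116 when any library other than diestrus replicate 1 was left out: 0.0672, 0.0654 and 0.0729 without diestrus replicates 2 to 4, and 0.0751, 0.116 and 0.0564 without estrus replicates 1 to 3. Without diestrus replicate 1 it was 0.00193. Fcer1g, the common gamma chain that carries signals of Fcgr1 and Fcgr3 (chromosome 1, 171229572 to 171234365), stood at 16.0, 12.7 and 20.7 FPKM at estrus, against 15.9, 45.5, 35.97 and 39.2 at diestrus. Here diestrus replicate 1 lay inside the estrus range, and the log2 change of -0.94 (SE 0.35) did not pass (adjusted p = 0.0741). Without diestrus replicate 1 it was -1.26 (adjusted p = 0.00481). Fcer1g passed with no other library left out, and its adjusted p was 0.231 without estrus replicate 2.

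The high-affinity Fc receptor Fcgr1, which signals through the same gamma chain, did not pass; its difference from Fcgr3 was not tested. Fcgr1 (chromosome 3, 96282909 to 96293969) stood at 3.67, 2.70 and 4.55 FPKM at estrus, against 2.25, 3.87, 2.82 and 2.95 at diestrus. The groups overlapped, with a log2 change of 0.22 (SE 0.20, limma adjusted p = 0.407) that was -0.01 with library weights. The inhibitory receptor Fcgr2b shares sequence with Fcgr3, so reads could be divided between them. The level of Fcgr3 over that of Fcgr2b was 0.65 to 1.02 in the estrus libraries and 1.30 to 2.26 in the diestrus libraries. The level of Tyrobp over that of Fcer1g was 1.13 to 1.49 at estrus and 1.57 to 1.92 at diestrus, so Tyrobp was the higher adaptor in each library. These ratios of levels were chosen after their values were seen and were not tested.

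The chains of C1q, the recognition part of the classical complement pathway that macrophages make, kept similar proportions to each other in every library. C1qb, C1qc and C1qa lie side by side on chromosome 4 (136880129 to 136898803) on the minus strand. C1qa stood at 37.4, 30.8 and 43.8 FPKM at estrus, against 40.4, 102, 72.6 and 83.0 at diestrus. C1qb stood at 28.5, 25.8 and 35.6 FPKM at estrus, against 33.2, 95.2, 60.6 and 73.8 at diestrus, and C1qc at 29.8, 27.6 and 40.8 against 35.8, 88.8, 63.0 and 74.9. For each chain diestrus replicate 1 lay inside the estrus range, and diestrus replicates 2 to 4 lay above every estrus library. The level of C1qa was 1.07 to 1.32 times that of C1qb and 1.07 to 1.26 times that of C1qc in all 7 libraries. C1qb fell at the edge of the threshold, with a log2 change of -1.02 (SE 0.33, limma adjusted p = 0.0486). C1qa and C1qc, with log2 fold changes of -0.92 (SE 0.30) and -0.93 (SE 0.30), did not pass (adjusted p = 0.0512 and 0.0514). Without diestrus replicate 1 the log2 fold changes of C1qa, C1qb and C1qc were -1.18, -1.31 and -1.19, with adjusted p values of 0.00485, 0.00480 and 0.00567. C1qb lost its call when any other library was left out, at 0.0880, 0.0904 and 0.112 without diestrus replicates 2 to 4 and 0.123, 0.159 and 0.0685 without estrus replicates 1 to 3.

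The receptors for the complement fragments C3a and C5a did not pass. C3ar1 (chromosome 6, 122847138 to 122856161) stood at 4.28, 4.23 and 6.52 FPKM at estrus, against 3.77, 12.8, 7.003 and 8.31 at diestrus, a log2 change of -0.50 (SE 0.34, limma adjusted p = 0.286). C5ar1 (chromosome 7, 16246743 to 16259540) stood at 1.64, 2.90 and 3.18 FPKM at estrus, against 2.05, 4.15, 2.45 and 3.42 at diestrus (-0.17, SE 0.24, adjusted p = 0.617). Its values were intermixed between the phases, and its log2 fold change was 0.04 without estrus replicate 1.

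**Figure D3:**
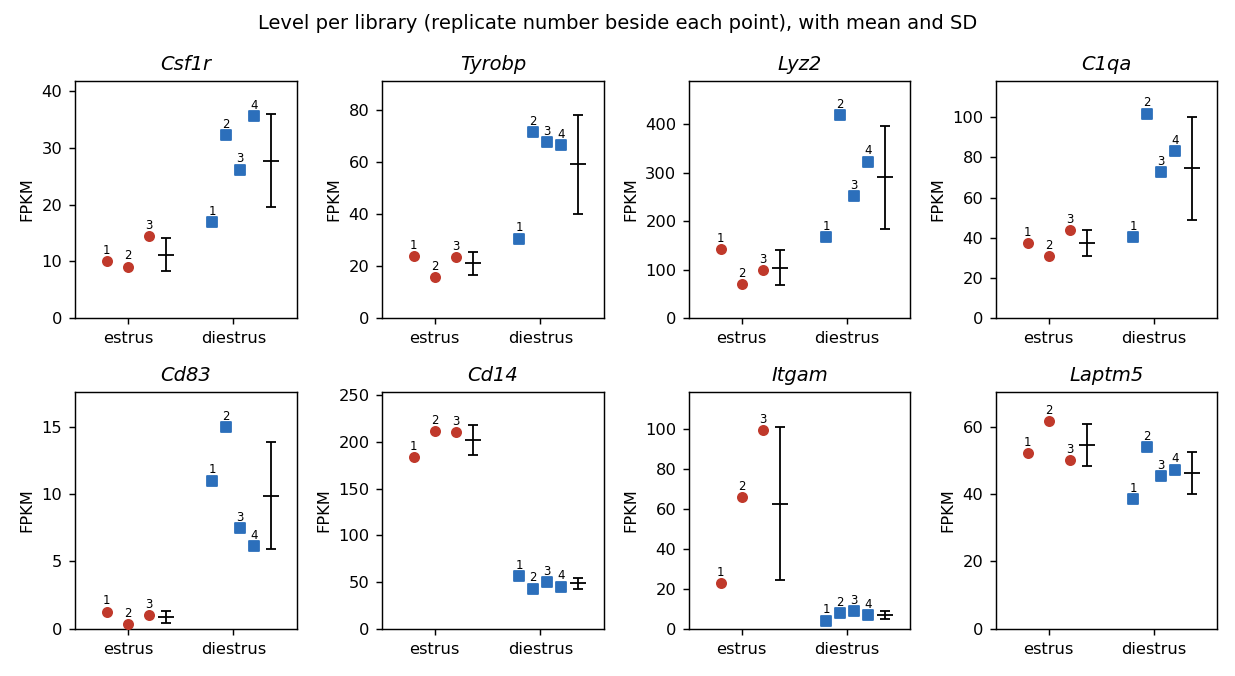
FPKM of 8 members in each library, with the replicate number beside each point and the mean and SD at the right of each group (3 estrus and 4 diestrus libraries). Csf1r, Tyrobp, Lyz2 and Cd83 lie lower at estrus in every library, C1qa does so against diestrus replicates 2 to 4, Cd14 and Itgam lie higher, and the Laptm5 groups overlap.

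Among the genes of the macrophage surface and lysosome, Lyz2 and Ms4a7 fell, Cd14 rose and the other 8 did not pass. Lyz2, the lysozyme of macrophages and other myeloid cells (chromosome 10, 117277331 to 117282321), had the highest diestrus level of all members. It stood at 142, 70.7 and 99.2 FPKM at estrus, against 167, 419, 252 and 323 at diestrus. The groups did not overlap, and Lyz2 had a log2 change of -1.45 (SE 0.35, limma adjusted p = 0.0196). Lyz2 lost its call when diestrus replicate 4 (adjusted p = 0.0509), estrus replicate 2 (0.0864) or estrus replicate 3 (0.050003) was left out. The neighbouring gene Lyz1 has a nearly identical sequence and could share reads, but its level was 0.01 to 0.16 times that of Lyz2. Ms4a7, a four-span membrane protein of mature macrophages (chromosome 19, 11321039 to 11336146), stood at 4.26, 2.50 and 3.90 FPKM at estrus, against 6.21, 12.5, 8.73 and 11.5 at diestrus. It did not overlap between the phases either (log2 fold change -1.22, SE 0.25, adjusted p = 0.0119), with an adjusted p of 0.0577 without estrus replicate 2.

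Cd14, the surface co-receptor that hands bacterial lipopolysaccharide to Toll-like receptor signalling, rose at estrus. Cd14 (chromosome 18) stood at 184, 212 and 210.3 FPKM in estrus replicates 1 to 3, against 56.2, 43.2, 50.1 and 45.2 in diestrus replicates 1 to 4. The lowest estrus library lay far above the highest diestrus library, and neither group was widely spread. The mean was 202 ± 15.7 FPKM at estrus (SD, n = 3) and 48.7 ± 5.80 at diestrus (SD, n = 4), 4.15 times higher at estrus. The log2 fold change was 2.04 (SE 0.13, limma adjusted p = 0.000512). It passed without any single library, with adjusted p values of 0.000895 to 0.00817. Cd14 is not restricted to macrophages: epithelial cells of several organs are known to make it.

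The remaining 8 markers of tissue macrophages had overlapping groups. Mrc1, the mannose receptor (chromosome 2, 14229392 to 14332057), stood at 9.97, 13.2 and 15.8 FPKM at estrus, against 10.9, 11.0, 13.3 and 18.7 at diestrus. Its log2 fold change was -0.04 (SE 0.22, limma adjusted p = 0.907). Cd68, a lysosomal membrane protein (chromosome 11, 69664213 to 69666153), stood at 17.0, 22.9 and 51.3 FPKM at estrus, against 11.9, 37.2, 18.6 and 22 at diestrus. Estrus replicate 3 was its highest library, and the log2 change of 0.38 (SE 0.45, adjusted p = 0.537) was -0.07 without it. Folr2, a folate receptor of resident macrophages, stood at 8.67 ± 3.13 FPKM at estrus (SD, n = 3) and 12.5 ± 4.42 at diestrus (SD, n = 4), with an adjusted p of 0.302 in limma. Mertk, which takes up dying cells, stood at 6.51 ± 1.18 FPKM at estrus and 9.28 ± 2.49 at diestrus, with an adjusted p of 0.149. Cx3cr1, the fractalkine receptor, had a log2 change of -0.66 (SE 0.25, adjusted p = 0.0807). It stood at 4.04, 5.05 and 6.13 FPKM at estrus, against 5.16, 10.8, 8.63 and 10.6 at diestrus. Without diestrus replicate 1 it passed, with a log2 change of -0.87 (adjusted p = 0.0101). Cx3cr1 passed with no other library left out, and its adjusted p was 0.220 without estrus replicate 1. Aif1, the actin-bundling protein known as Iba1, stood at 6.02 ± 1.03 FPKM at estrus and 6.95 ± 1.93 at diestrus (adjusted p = 0.613). Cd163, the haemoglobin scavenger receptor, was at or under 1.83 FPKM in every library. Laptm5, a lysosomal protein of all blood-derived cells (chromosome 4, 130913125 to 130936141), stood at 52.0, 61.6 and 50.1 FPKM at estrus, against 38.5, 53.8, 45.2 and 47.2 at diestrus. Its groups overlapped, with a log2 change of 0.24 (SE 0.14, adjusted p = 0.227).

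Itgam and Itgax, which lie next to each other on chromosome 7, moved in opposite directions. Itgam (128062640 to 128118491) encodes the alpha M integrin chain CD11b of macrophages, neutrophils and natural killer cells. It stood at 22.9, 66.2 and 99.5 FPKM in estrus replicates 1 to 3, against 4.19, 7.97, 9.03 and 6.91 in diestrus replicates 1 to 4. Every estrus library lay above every diestrus library, and the estrus values were widely spread. The mean was 8.95 times higher at estrus, with a log2 change of 2.80 (SE 0.47, limma adjusted p = 0.00572), and it passed without any single library (adjusted p of 0.00269 to 0.0332). Itgax (128129547 to 128150657), the alpha X chain CD11c of dendritic cells and macrophages, stood at 1.39, 0.77 and 1.63 FPKM at estrus, against 1.63, 4.37, 5.83 and 3.53 at diestrus. It fell, with a log2 change of -1.03 (SE 0.32, adjusted p = 0.0444). That call held only without diestrus replicate 1 among the single libraries: the adjusted p was 0.0920, 0.0860 and 0.0905 without diestrus replicates 2 to 4, and 0.0941, 0.1605 and 0.0656 without estrus replicates 1 to 3.

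Both chains reach the cell surface only as a pair with the beta 2 chain, encoded by Itgb2, and Itgb2 did not rise with Itgam. Itgb2 stood at 6.23, 6.21 and 6.39 FPKM at estrus, against 6.75, 13.4, 10.9 and 13.1 at diestrus (log2 fold change -0.69, SE 0.22, limma adjusted p = 0.0501). The level of Itgam was 3.67 to 15.6 times that of Itgb2 in the estrus libraries and 0.53 to 0.83 times in the diestrus libraries, a comparison chosen after the values were seen. Itgal, the alpha L chain that shares the same partner, fell by 1.00 on the log2 scale (SE 0.27, limma adjusted p = 0.0279). The related gene Itgad was under 0.48 FPKM in every library. The annotation places a second gene, Gm49368, on the same strand, sharing 210 bases of an exon with Itgam.

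Neutrophils also carry CD11b, and their markers gave mixed values. Of 10 listed markers 9 were in the table, and 5 of these (Camp, Elane, Ngp, Cxcr2 and Mmp8) were under 1 FPKM throughout, with Camp and Elane listed at 0 in all 7 libraries. The 9 summed to 23.6 to 30.0 FPKM at estrus and 14.3 to 52.2 at diestrus, and the groups overlapped. Most of that sum was Retnlg, at 20.6, 27.2 and 21.1 FPKM at estrus, against 11.9, 47.6, 27.1 and 30.7 at diestrus. S100a9 stood at 1.61, 1.23 and 2.72 FPKM at estrus, against 1.04, 1.23, 0.78 and 1.08 at diestrus, higher at estrus without overlap, though the nearest libraries were almost level (log2 change 0.46, SE 0.20, limma adjusted p = 0.111). Csf3r stood at 0.28 to 0.49 FPKM at estrus and 0.63 to 2.31 at diestrus, lower at estrus without overlap (adjusted p = 0.0509). Neither these nor Retnlg passed, and they were the 3 neutrophil markers tested. The 8 epithelial markers summed to 2783 to 3312 FPKM at estrus and 813 to 1072 at diestrus, and 6 of them rose with Cd14 and Itgam. The part of neutrophil and epithelial RNA in the rise of Cd14 and Itgam was not tested.

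Sequences before annotated RefSeq starts are shown for members that moved in different ways but share a short motif of PU.1, the product of Spi1. RefSeq promoters of GRCm38.p6 were at hand for 26 of the 33 members, and the 250 bases before each start were searched on both strands for GAGGAAG, the core of PU.1 sites. It was found in 7 of the 26 members (26.9%) and in 12% of all 27025 genes that had a promoter sequence. For the 10023 tested genes among these the share was 13.2%. Flt3 and Xcr1, included in the 26, were not tested and do not hold it. Capitals mark the motif, written as CTTCCTC where it lies on the other strand, and each line runs 5′ to 3′ along the gene. The Itgam window, chr7:128062390-128062639 on the plus strand, holds it 84 bases before the start. The Fcgr3 window, chr1:171059395-171059644 on the minus strand, holds it 16 bases before the start on the opposite strand. Another Fcgr3 window, chr1:171059404-171059653, belongs to a second RefSeq start and holds it 7 bases before that start. The Batf3 window, chr1:191098164-191098413 on the plus strand, holds it 153 bases before the start. The Laptm5 window, chr4:130913066-130913315 on the plus strand, holds it 39 bases before the start on the opposite strand. By the gene spans given above, the Fcgr3 and Batf3 windows lie inside the gene and the Laptm5 window partly inside. These RefSeq starts thus differ from the start of the annotated span.
Itgam: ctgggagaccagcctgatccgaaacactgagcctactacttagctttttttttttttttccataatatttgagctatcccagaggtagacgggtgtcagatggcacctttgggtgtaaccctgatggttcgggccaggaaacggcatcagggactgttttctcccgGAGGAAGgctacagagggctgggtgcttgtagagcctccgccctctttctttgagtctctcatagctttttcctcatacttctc
Fcgr3: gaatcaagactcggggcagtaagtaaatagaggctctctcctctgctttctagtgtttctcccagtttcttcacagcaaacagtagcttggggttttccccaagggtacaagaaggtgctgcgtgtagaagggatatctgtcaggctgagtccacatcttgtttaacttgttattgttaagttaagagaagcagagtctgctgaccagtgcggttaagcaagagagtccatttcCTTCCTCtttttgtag
Batf3: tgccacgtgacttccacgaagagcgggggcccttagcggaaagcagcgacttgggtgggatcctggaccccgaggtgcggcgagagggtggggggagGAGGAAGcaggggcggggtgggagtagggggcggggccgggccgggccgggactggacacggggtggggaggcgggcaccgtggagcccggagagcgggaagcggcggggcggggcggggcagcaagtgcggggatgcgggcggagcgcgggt
Laptm5: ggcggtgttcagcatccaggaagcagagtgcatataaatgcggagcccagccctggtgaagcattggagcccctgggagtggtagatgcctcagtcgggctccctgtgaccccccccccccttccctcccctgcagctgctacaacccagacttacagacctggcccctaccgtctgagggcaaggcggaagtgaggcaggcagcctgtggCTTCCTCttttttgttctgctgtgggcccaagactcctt
Among the genes that hold the motif, Itgam rose, Batf3 and Fcgr3 fell, and Laptm5, C1qc, Fcgr1 and Mrc1 did not pass. A match is only a description of the letters in this window.

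Of 4 tested dendritic cell markers, Cd83 and Clec9a fell, against 14.0% of all tested genes. Clec9a entered the test through its diestrus values alone, so a difference was built in. Cd83, a surface protein of mature dendritic cells and activated lymphocytes (chromosome 13, 43784775 to 43803132), stood at 1.28, 0.38 and 1.03 FPKM at estrus, against 11.0, 14.97, 7.48 and 6.11 at diestrus. Every diestrus library lay well above every estrus library, and diestrus replicate 1 was the second highest rather than the lowest. Cd83 fell with a log2 change of -2.48 (SE 0.31, limma adjusted p = 0.00240), and passed without any single library, with an adjusted p of 0.00405 to 0.0163. Clec9a, the receptor for dying cells on cross-presenting dendritic cells (chromosome 6, 129408862 to 129424763), stood at 0.64, 0.40 and 0.72 FPKM at estrus, against 0.97, 1.23, 1.602 and 2.04 at diestrus. It had a log2 change of -0.62 (SE 0.18, adjusted p = 0.0392). The adjusted p was 0.0892, 0.156 and 0.0621 without estrus replicates 1 to 3. Without diestrus replicate 2, 3 or 4 Clec9a missed the filter and was not tested. An exon of Clec9a shares 184 bases with Clec1b on the same strand, which was at 0.03 to 0.10 FPKM at estrus and 0.23 to 1.21 at diestrus. Xcr1, the chemokine receptor of the same cells, was too low to be tested, with 0.42, 0.25 and 0.32 FPKM at estrus, against 0.34, 0.59, 0.89 and 0.95 at diestrus.

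Clec10a and Cd209a, C-type lectins of dendritic cells and macrophages, did not pass. Clec10a (chromosome 11, 70156197 to 70170834) stood at 4.46, 0.94 and 3.14 FPKM at estrus, against 3.94, 7.42, 7.49 and 12.5 at diestrus (log2 fold change -1.24, SE 0.43, limma adjusted p = 0.0599). Estrus replicate 2 was its lowest library, and without diestrus replicate 1 the adjusted p was 0.0291. Clec10a passed with no other library left out, and its adjusted p was 0.195 without estrus replicate 2. Mgl2 is a close relative of Clec10a whose reads could be confused with it. Its level was 1.93 ± 0.52 FPKM at estrus (SD, n = 3) and 3.37 ± 0.60 at diestrus (SD, n = 4). Mgl2 itself passed, lower at estrus without overlap (log2 change -0.58, SE 0.18, limma adjusted p = 0.0433). Cd209a, a relative of human DC-SIGN (chromosome 8, 3743397 to 3748984), stood at 1.90, 0.49 and 1.57 FPKM at estrus, against 2.16, 2.51, 2.29 and 3.20 at diestrus. The Cd209a groups did not overlap, and the log2 change of -0.66 (SE 0.25) had an adjusted p of 0.0744. Of the 31 tested members, 11 had every estrus library under every diestrus library and 2 had the reverse, against 18.7% and 21.9% of all tested genes. Without Batf3 and Clec9a the first count was 9 of 29.

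Of 6 members set against Csf1r within the same library, none had a ratio that passed the test between the phases after adjustment. The ratios are of FPKM + 1, so those of low genes depend on the added 1 and on the scale of the library. The log2 ratio of Csf1 over Csf1r was 0.29, 0.40 and -0.23 at estrus, against -0.91, -1.33, -0.73 and -1.06 at diestrus. Ligand was thus above or near its receptor at estrus and below it at diestrus, with no overlap and a difference of 1.16. The log2 ratio of Folr2 over Csf1r was -0.54, -0.31 and -0.22 at estrus, against -1.23, -1.39, -0.81 and -1.02 at diestrus, a difference of 0.76. The log2 ratio of Cd163 over Csf1r was -2.94, -2.97 and -2.57 at estrus, against -3.72, -3.56, -3.29 and -3.90 at diestrus, a difference of 0.79. These 3 ratios did not overlap between the phases and reached the smallest p that the exact two-sided permutation test over 35 arrangements can give, 0.0286. Adjusted over the 6 ratios computed, that p was 0.0571 and did not pass. With only 3 ratios at the smallest p, none of them could pass, so the test cannot decide whether they differ. C1qa over Csf1r differed by 0.30 and Clec9a over Csf1r by 0.59, with exact permutation p values of 0.114 and 0.0571, or 0.114 and 0.0857 adjusted. Cd83 over Csf1r averaged -2.69 ± 0.36 at estrus (SD, n = 3) and -1.42 ± 0.77 at diestrus (SD, n = 4), an overlapping difference of -1.27 (exact permutation p = 0.0857, adjusted p = 0.103). With a pseudocount of 5 in place of 1 the Cd83 difference was -0.31, and with 0.1 it was -2.10. The values for Clec9a and Cd163, both near 1 FPKM, also moved with the pseudocount: with 0.1 they were 0.11 and 0.44.

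**Figure D4:**
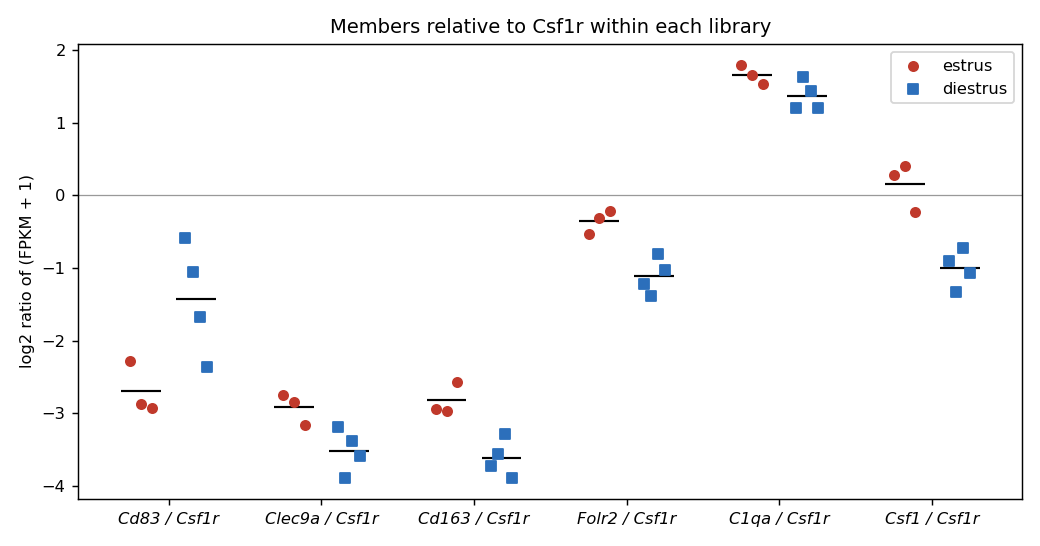
Log2 ratio of each of 6 members over Csf1r within a library, from FPKM + 1, with 1 point per library and black lines at the group means (estrus in red, diestrus in blue). Csf1, Folr2 and Cd163 lie higher over Csf1r at estrus without overlap, while C1qa stays between 1.198 and 1.80 in all 7 libraries.

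Other genes of the same pathways were counted in the same way. They were listed by function with earlier results of these data known, so their shares only describe them. Of 66 such genes 53 were tested. Of these 14 fell (26.4%) and 3 rose (5.66%), against 14.0% and 17.2% of all tested genes, with a median log2 change of -0.41. The number that fell was 24 without diestrus replicate 1, and 9, 8 and 7 without diestrus replicates 2, 3 and 4. It was 5, 2 and 10 without estrus replicates 1, 2 and 3. The number that rose was 6 without diestrus replicate 2, and 2 or 3 without any other single library. Of 8 tested ligands and receptors 1 fell (12.5%) and 1 rose (12.5%). Omitting 1 library gave 0 to 4 falls and 0 to 2 rises. Csf2rb, the beta chain of the Csf2 receptor, fell by 0.90 on the log2 scale (SE 0.24, limma adjusted p = 0.0268). Cx3cl1, the ligand of Cx3cr1, rose by 0.84 (SE 0.25, adjusted p = 0.0418), with 18.6, 17.9 and 26.4 FPKM at estrus, against 7.26, 15.6, 10.3 and 12.96 at diestrus. Ccl2, the monocyte attractant, stood at 5.01, 4.40 and 3.43 FPKM at estrus, against 0.98, 4.37, 0.82 and 0.95 at diestrus, where replicate 2 alone reached the estrus level. It did not pass (adjusted p = 0.0648), and without diestrus replicate 2 it did, with an adjusted p of 0.00428. Ccl2 passed with no other library left out, and its adjusted p was 0.171 without estrus replicate 2.

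Of 18 tested genes of phagocytosis and the phagocyte oxidase, 4 fell (22.2%) and 1 rose (5.56%), against 14.0% and 17.2% of all tested genes. The number that fell was 0 without estrus replicate 2, 1 without estrus replicate 1 or diestrus replicate 4, 2 without diestrus replicate 2 and 9 without diestrus replicate 1. Emr1, which encodes a surface antigen of mature mouse macrophages, stood at 9.13, 8.75 and 12.9 FPKM at estrus, against 11.5, 37.6, 26.3 and 38.1 at diestrus (log2 fold change -1.27, SE 0.39, limma adjusted p = 0.0442). Mpeg1, the pore-forming perforin-2 of macrophages, fell by 1.43 (SE 0.36, adjusted p = 0.0229), Pros1, a ligand of Mertk, by 1.05 (SE 0.23, adjusted p = 0.0153), and Cd84 by 0.92 (SE 0.26, adjusted p = 0.0336). Cyba, the p22phox chain that many cell types express, rose by 0.84 (SE 0.15, adjusted p = 0.00784), with 176, 184 and 219 FPKM at estrus, against 87.3, 109.6, 121 and 113 at diestrus. Its partner Cybb, the phagocyte chain gp91phox, had a log2 change of -0.65 (SE 0.22, adjusted p = 0.0541).

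Of 9 tested dendritic cell companions 4 fell (44.4%) and 0 rose, against 14.0% and 17.2% of all tested genes. Omitting 1 library gave 2 to 5 falls. Zbtb46, a transcription factor of conventional dendritic cells, fell by 0.66 (SE 0.14, limma adjusted p = 0.0116), and it stood at 2.48, 2.45 and 2.60 FPKM at estrus, against 3.94, 5.21, 4.12 and 5.02 at diestrus. Id2, Fscn1 and Sirpa, which many other cells of the uterus can express, fell by 1.48, 0.82 and 0.56 (adjusted p = 0.00350, 0.00855 and 0.0487). Of 10 tested Fc receptor and ITAM signalling genes 2 fell (20%) and 1 rose (10%). Omitting 1 library gave 0 to 3 falls and 1 to 2 rises. The lectins Clec7a and Clec4n fell by 1.18 and 0.98 (adjusted p = 0.0154 and 0.0381). The kinase Lyn rose by 0.86 (SE 0.13, adjusted p = 0.00376). Syk, the kinase that binds phosphorylated ITAMs, had a log2 change of 0.45 (adjusted p = 0.104). Of 8 tested myeloid transcription factors 3 fell (37.5%) and 0 rose, and omitting 1 library gave 0 to 3 falls. Nr1h3, the liver X receptor alpha, fell by 1.52, Cebpa by 0.71 and Irf5 by 0.66 (adjusted p = 0.0283, 0.0432 and 0.0360). Of the 17 companion genes called, Cyba, Id2, Fscn1 and Lyn passed without any single library. The other 13 all lost their calls without estrus replicate 2 (limma adjusted p of 0.0620 to 0.158). Of the 17, 10 lost them without estrus replicate 1, 7 without estrus replicate 3, and 5, 8 and 8 without diestrus replicates 2, 3 and 4.

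Markers of other cells differed in direction and in how far they depended on single libraries. Over all tested genes, 14.0% fell and 17.2% rose. The 8 pan-leukocyte markers summed to 77.4 to 95.8 FPKM at estrus and to 82.7, 140, 192 and 173 in diestrus replicates 1 to 4, so that diestrus replicate 1 lay within the estrus range here as well. Of these Coro1a, Cd52 and Rac2 fell, but the count of 3 was 5 without diestrus replicate 1 and 0 without any other single library. Ptprc, which encodes the leukocyte antigen CD45, had a log2 change of -0.98 (SE 0.34, limma adjusted p = 0.0616). The 7 mast cell markers, tested or not, summed to 10.6 to 14.8 FPKM at estrus and 31.6 to 65.8 at diestrus. Among the 5 tested, 4 fell. That count was 2 without estrus replicate 1 and 1 without estrus replicate 2 or 3. The 9 T and natural killer cell markers summed to 8.12 to 12.9 FPKM at estrus and 16.7 to 60.5 at diestrus. Among the 6 tested, 4 fell. Of those that fell, Cd3g, Cd4 and Klrb1c had no estrus library at 1 FPKM and entered the test through diestrus alone, so a difference was built in. The count was 2 without diestrus replicate 4 or estrus replicate 1 or 3, and 1 without estrus replicate 2. The 7 eosinophil markers summed to 4.55 to 7.90 FPKM at estrus and 5.36 to 9.63 at diestrus, and none of the 4 tested passed. For the B cell markers, Cd79b alone was tested and rose. All 7 endothelial markers fell, with sums of 122 to 157 FPKM at estrus and 217 to 496 at diestrus. That count was 0 without estrus replicate 2 and 4 without estrus replicate 1. Of 9 stromal markers 4 fell (sums of 3193 to 4170 FPKM at estrus and 2931 to 5387 at diestrus), and of 7 smooth muscle markers 1 rose and 1 fell (2937 to 5243 FPKM at estrus and 2603 to 6845 at diestrus). The smooth muscle fall, Smtn, held only without diestrus replicate 1, and the rise, Actg2, only without estrus replicate 1 or diestrus replicate 1 or 4. The 6 epithelial rises held without any single library. The 4 haemoglobin and erythroid markers in the table did not pass (359 to 1010 FPKM at estrus and 237 to 1138 at diestrus). The part of a change in the makeup of the tissue in the lower levels of the macrophage and dendritic cell genes was not tested.

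**Figure D5:**
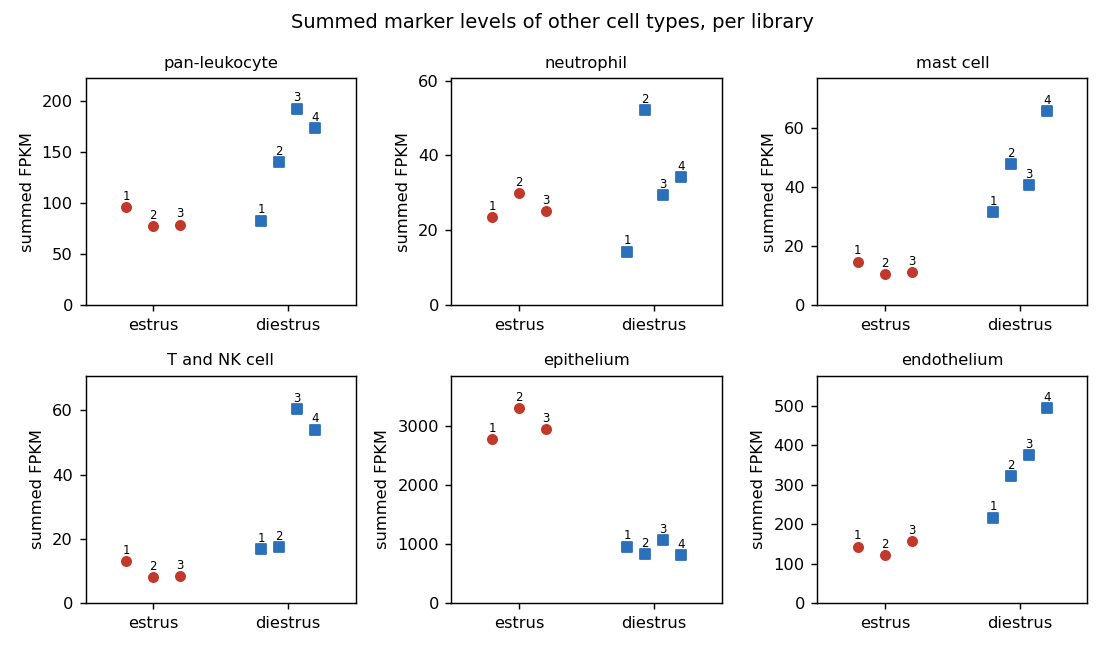
Summed FPKM of marker lists of other cell types in each library, with replicate numbers (estrus red, diestrus blue). Epithelial sums are 2783 to 3312 at estrus and 813 to 1072 at diestrus, mast cell and endothelial sums lie lower at estrus in every library, and the neutrophil sums of the phases overlap.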

How the data were processed

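RNA was purified on columns and turned into libraries with a TruSeq kit, per the labels' protocols. The authors deposited FPKM, 1 column per library. Per the submitters' processing notes, TopHat2 2.0.4 and the build mm10 (GRCm38) were used, in a role that is not stated. For FPKM the program, annotation and strand setting: not given in the sources used here. FPKM divides by mapped reads, so rows that take many reads can lower all others. The row AK178082 took 19.6% to 27.5% of the FPKM sum in the estrus libraries and diestrus replicate 1. The top row took 3.31% to 6.66% in diestrus replicates 2 to 4. FPKM also divides by transcript length, so these percentages do not measure how many reads a row took. Whether other rows were lowered was not tested, and the median log2 fold change over all tested genes was 0.05. Reads of near-identical genes can be split or lost.

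Columns were matched to samples by description, and samples grouped by title (3 estrus, 4 diestrus). FPKM are not counts, so limma 3.58.1 in R 4.3.3 was run on log2(FPKM + 1) over 13920 genes at 1 FPKM or more in at least 3 libraries, with an intensity trend, and was tested on simulated data. Relative depth was read from values under 0.3 FPKM, as the commonest log2 ratio between libraries in steps of 0.02. The 6 ratios to Csf1r used an exact permutation test. Coordinates are from GENCODE vM21 on GRCm38. All 33 members are described, and companion values are given for Ptprc, Il34 and, in each list, among the up to 4 genes with the smallest p in each direction, chiefly those that passed. The members and lists were chosen with earlier results of these data known, and the PU.1 motif, Itgb2, Itgal, Itgad, Lyz1, Mgl2, Cybb, Syk, Ccl2 and S100a9 were named after values were seen. The alternatives changed the pseudocount (0.1 or 5), the filter (none, or a mean of 5 FPKM), the scaling (quantile normalization or median ratios), the trend, the library weights or the replicate block, or omitted each library in turn. Figures were drawn with matplotlib 3.10.9.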

Additional observations from a re-analysis of the deposited data

Results flagged for a closer look

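In the 4 diestrus libraries, Tyrobp was the 1 member of 33 with a library far from the others: the gap between diestrus replicate 1 (30.5 FPKM) and the next library (66.5) took 0.877 of the group's range. That is above the Dixon critical value for 4 samples. Chance gives such a gap in about 1 in 20 groups. Without that library the log2 fold change of Tyrobp was -1.68 (limma adjusted p = 0.00193).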

How the results depend on the processing

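Cd14 and Itgam rose and Cd83 fell in all 16 alternatives. The number of members that fell, 11 as reported, was 7 with a mean of at least 5 FPKM, 22 with library weights and 2 (Csf1r and Cd83) with the replicate block. Omitting 1 library gave 1 to 15. For the companion genes, 14 of which fell and 3 of which rose, the falls were 7 with no filter, 8 with the mean filter, 29 with library weights and 3 with the replicate block. Omitting 1 library gave 2 to 24. Their rises were 8 with library weights and, with 1 library omitted, 2 to 6. Over all genes, 2393 rose and 1943 fell. Library weights gave 4318 and 3795, the replicate block 1299 and 982, the mean filter 1181 falls, and omitting 1 library 854 to 2866 rises and 579 to 2445 falls. The weights gave estrus replicate 2 a weight of 5.85 against 0.36 to 1.37 for the other libraries, by the gene-by-gene estimate. Some log2 changes of members that did not pass turned sign. With the replicate block Csf1 was 0.064 and Mrc1 0.12, and with library weights Fcgr1 was -0.014. With 1 library omitted, Csf1 ran over -0.23 to 0.064 (0.033 without diestrus replicate 3), Cd68 over -0.068 to 0.70, Mrc1 over -0.18 to 0.13 (0.12 without diestrus replicate 4) and C5ar1 over -0.29 to 0.039. The causes were not tested. In the block, diestrus replicate 4 has no partner and adds nothing. The deviations of same-numbered libraries correlated at 0.20, 0.02 and 0.17 across genes, so the numbers were not taken to pair the samples. The Csf1r ratios kept their direction and did not pass in any alternative run, where leaving out 1 library makes 0.0667 (4 against 2) or 0.1 (3 against 3) the smallest p possible. Without read counts, values near 1 FPKM (Batf3, Clec9a, Cd163, Flt3, Xcr1) have an unknown counting error.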
